A study of Mus musculus with 14 samples.

Results

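The Ier-named genes are the 5 mouse genes whose symbols are Ier2, Ier3, Ier5, Ier5l and Ier3ip1. They were selected by symbol among 24394 named genes, and the family was picked because Ier2 was the 1 gene called between the groups, so the difference between the groups is given for these genes as a description and not as a test. All 5 passed the filter on low values, among 11646 genes that did. The libraries came from microglia of C57BL/6 mice aged 18 months that had received a CD22 blocking antibody (anti-CD22, 7 libraries) or a control antibody (IgG, 7 libraries) through an osmotic pump into the cerebrospinal fluid for 1 month. CD22 is a sialic acid-binding inhibitory receptor. All mice of both groups carried the pump and cannula, the hemisphere away from the cannula was used, and about 20000 live CD11b+CD45lo cells were sorted per sample. The labels do not say that each library is a separate animal, so a p-value here reflects the spread from library to library, which may be technical in part.

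Immediate early response genes are transcribed within minutes of a stimulus such as a growth factor, a cytokine or tissue handling, without new protein synthesis, and their messenger RNAs are short-lived. The shared symbol covers unrelated proteins. Ier2, Ier5 and Ier5l share a conserved N-terminal region, and human IER5 brings the phosphatase PP2A to its substrates, the heat shock factor HSF1 among them. Ier3, also known as IEX-1 or gly96, is a separate protein that acts in cell survival and in ERK and NF-kB signalling. Ier3ip1 encodes a small membrane protein of the endoplasmic reticulum, a relative of yeast Yos1 that acts in transport to the Golgi, and owes its name to an interaction with IER3 rather than to induction by a stimulus.

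Promoter sequences of Ier3, Ier5 and Ier5l were searched for known control elements. RefSeq's promoter table (GRCm38.p6) matched these 3 of the 5 genes, and held no entry for Ier2 or Ier3ip1. The bases before the annotated start are printed 5′ to 3′ on the strand of the gene, up to the outermost start in RefSeq or GENCODE. Capitals mark CCAAT boxes (CCAAT), TATA boxes (TATAA), GC boxes (GGGCGG) and an NF-kB site (GGAATTTCC), each searched on both strands, so that ATTGG and CCGCCC are reverse-strand matches.
Ier3, chr17:35821463-35821683, plus strand: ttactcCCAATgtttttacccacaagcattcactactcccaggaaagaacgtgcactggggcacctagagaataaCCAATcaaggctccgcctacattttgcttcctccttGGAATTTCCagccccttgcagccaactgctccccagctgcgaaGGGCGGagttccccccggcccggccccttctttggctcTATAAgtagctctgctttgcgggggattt
Ier5, chr1:155099637-155099886, minus strand: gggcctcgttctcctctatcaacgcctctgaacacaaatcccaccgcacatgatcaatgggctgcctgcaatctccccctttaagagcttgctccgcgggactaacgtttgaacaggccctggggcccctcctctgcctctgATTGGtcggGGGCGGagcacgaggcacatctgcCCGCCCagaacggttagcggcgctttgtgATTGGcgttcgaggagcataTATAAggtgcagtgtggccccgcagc
Ier5l, chr2:30474220-30474449, minus strand: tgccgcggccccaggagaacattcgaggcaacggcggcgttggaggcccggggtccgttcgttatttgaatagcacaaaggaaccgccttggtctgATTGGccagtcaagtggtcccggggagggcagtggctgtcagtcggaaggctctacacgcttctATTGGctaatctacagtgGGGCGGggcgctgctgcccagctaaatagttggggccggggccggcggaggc
No match overlapped another. Each of the 3 promoters held 2 CCAAT boxes in the 250 bases before its RefSeq start, and 10.1% of 32851 mouse promoters held 2 or more. A TATA box stood in the Ier3 and Ier5 promoters and in 22.8% of all promoters. The GC box occurred once in Ier3 and Ier5l, 2 times in Ier5, and at least once in 32.7% of promoters. The NF-kB site was found in the Ier3 promoter, 139 to 131 bases before the RefSeq start, and in 0.286% of promoters. The cyclic AMP response element core TGACG, which 17.8% of promoters held, and the CArG box of serum response factor, which 1.47% held, had no match in these 3 windows. The motifs were chosen after the promoters had been read, and a match is a description of letters only.

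Libraries held 20221836 to 38101421 reads in the 13 libraries whose recovered reads were used, and the microglia markers were present in all 14. A set of 8 microglia markers (P2ry12, Tmem119, Cx3cr1 and others) summed to 1325258 to 1410739 normalized counts in anti-CD22 libraries and 1229556 to 1490225 in IgG libraries. The antibody's target Cd22 averaged 1481 ± 184 normalized counts in anti-CD22 libraries and 1469 ± 279 in IgG libraries (SD, n = 7 each). Levels relative to the mean of all libraries followed transcript length across genes to a degree that differed between libraries. This length trend, a Spearman rho across genes, lay between -0.270 and 0.328 in anti-CD22 libraries and between -0.260 and -0.00375 in IgG libraries, and was steepest in anti-CD22 replicates 1, 2 and 3. Depth-normalized levels cannot tell fewer expressing cells from less RNA per cell.

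Ier2 was lower in every anti-CD22 library than in every IgG library. Ier2 lies on the minus strand at chr8:84661331-84662852 (GRCm38, GENCODE vM21) in a single exon, and encodes a nuclear protein that is induced by growth factors. Its lowest, median and highest values were 277, 315 and 399 normalized counts in anti-CD22 libraries, against 466, 598 and 711 in IgG libraries. The highest anti-CD22 library, replicate 4, stood below the lowest IgG library, replicate 6, and the groups did not overlap. The means were 326 ± 45.5 in anti-CD22 libraries and 598 ± 103 in IgG libraries (SD, n = 7 each), so that IgG libraries held 1.84 times as much. The log2 fold change, anti-CD22 over IgG on the log2(normalized count + 1) scale, was -0.87 (SE 0.13, 95% interval -1.14 to -0.60). Ier2 was the 1 lower gene that passed in limma's moderated fit (adjusted p = 0.0227), 0.00859% of the genes tested, and no gene was higher and passed. Nothing is read from that share, because this p chose the gene. Just outside the threshold stood Jun, which encodes an AP-1 transcription factor subunit (log2 fold change -0.63, SE 0.11, limma adjusted p = 0.0890).

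The level of Ier2 rested on 250 to 863 reads per library, and random counting of reads accounts for a relative SD of 4.91% at the median. Within groups its SD was 0.23 on the log2 scale, and 32.6% of 3595 genes of like level had a smaller one. The Ier2 difference was -0.92 without IgG replicate 1, the library with the most neutrophil transcripts, and -0.85 without anti-CD22 replicates 1, 2 and 3, where its adjusted p in limma was 0.502. Anti-CD22 replicates 6 and 7, whose length trends of -0.0473 and -0.270 were lower than the highest IgG value, held 304 and 277 normalized counts of Ier2, below all 7 IgG libraries. The part of the length and GC trends in the Ier2 values was not tested. With the trends of length and GC content removed, the log2 fold change was -0.70 (SE 0.15) and the adjusted p in limma 0.188. The call was also lost in 8 of the 14 fits that left out 1 library, with the log2 fold change between -0.93 and -0.82 over the 14. DESeq2 on the reads of 13 libraries gave Ier2 an adjusted p of 1.91e-05 among 18 lower genes, 0.231% of the 7807 to which it gave an adjusted p. In edgeR's quasi-likelihood test on the same 13 libraries, without anti-CD22 replicate 3, the adjusted p of Ier2 was 0.0846. That test called 0 genes and had 1027 at an unadjusted p under 0.05.

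**Figure D1:**
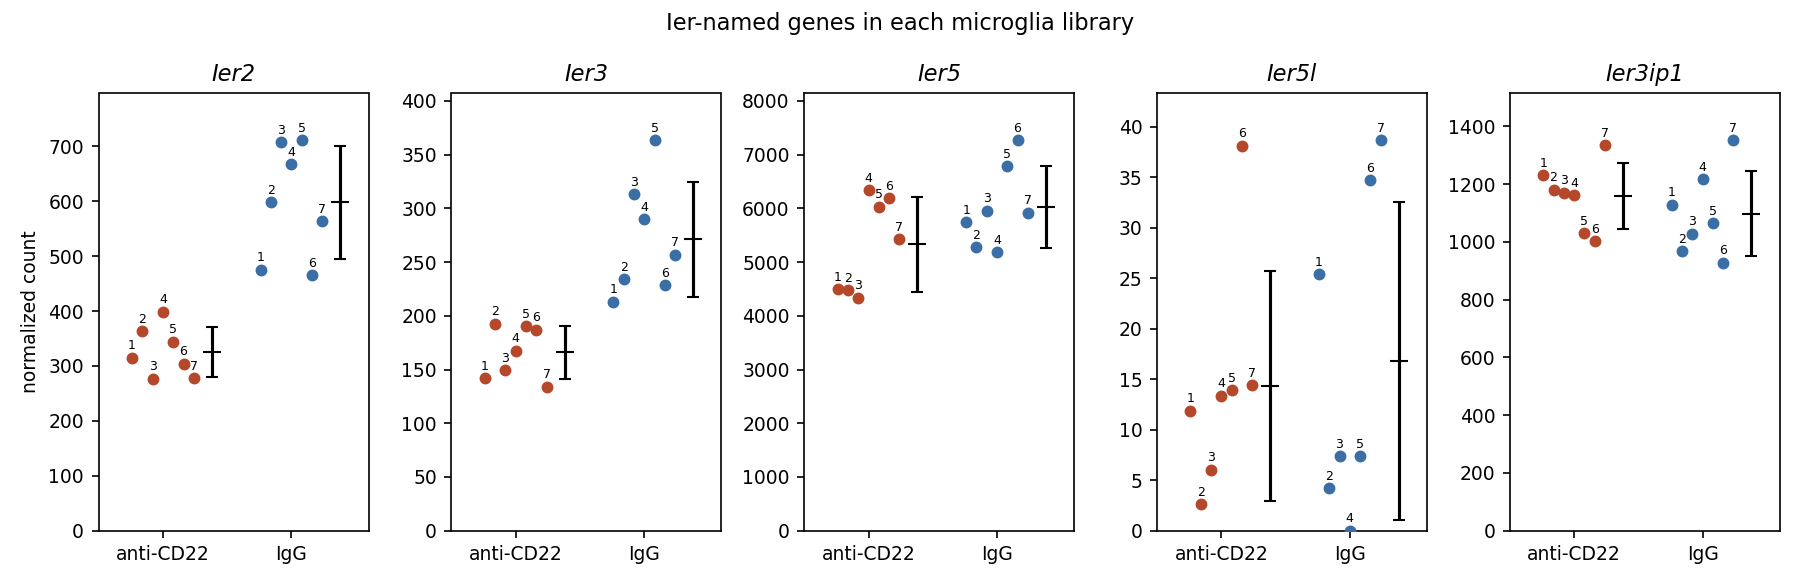
Normalized counts of the 5 Ier-named genes in each library, 1 panel per gene with its own axis from 0; points are libraries numbered by replicate, anti-CD22 left of IgG, and bars give the mean and SD of 7 libraries. In Ier2 the anti-CD22 libraries lie between 277 and 399 and the IgG libraries between 466 and 711; Ier3 also separates, while Ier5, Ier5l and Ier3ip1 overlap.

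Ier3 showed the same separation at a lower level. The gene lies at chr17:35821684-35822923 on the plus strand in 2 exons. Ier3 had a lowest, median and highest value of 134, 167 and 193 normalized counts in anti-CD22 libraries and of 213, 257 and 363 in IgG libraries. All 7 anti-CD22 libraries were below the lowest IgG library, replicate 1. The means were 166 ± 24.5 and 271 ± 53.8 normalized counts in anti-CD22 and IgG libraries (SD, n = 7 each). The log2 fold change was -0.69 (SE 0.16, 95% interval -1.02 to -0.37). It did not pass over all genes (limma, adjusted p = 0.163, 18th smallest p). Ier2 and Ier3 were among 14 genes, 0.12% of those tested, with every anti-CD22 library below every IgG library, and 16 genes had the opposite order. Since the contrast picked the family, nothing is read from this share.

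The ratio of Ier2 to Ier3 was 1.98 ± 0.26 in anti-CD22 libraries and 2.22 ± 0.19 in IgG libraries (SD, n = 7 each), with ranges that overlapped. The Ier3 difference was -0.75 without IgG replicate 1, -0.66 without anti-CD22 replicates 1, 2 and 3, and -0.56 with the trends of length and GC content removed (limma adjusted p = 0.283). The gene Flot1, which encodes the membrane scaffold protein flotillin-1, starts 307 bases downstream of Ier3 on the same strand. It averaged 2383 ± 371 normalized counts in anti-CD22 libraries and 2568 ± 290 in IgG libraries, with a log2 fold change of -0.12 (SE 0.099, limma adjusted p = 0.639). Nacc1, a transcriptional regulator gene 7631 bases from Ier2 on the same strand, averaged 402 ± 92.7 in anti-CD22 libraries and 366 ± 45.4 in IgG libraries, with a log2 fold change of 0.11 (SE 0.15, limma adjusted p = 0.778). Both neighbours had overlapping groups.

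The 3′ untranslated regions of Ier2 and Ier3 differed in the pentamer ATTTA, the core of AU-rich elements that speed messenger RNA decay. Ier3 held 5 copies in 613 bases, or 8.16 per kb, a higher density than in 98.5% of 11120 tested genes. Ier2 held 0 in 755 bases, whereas 69.6% of those genes had at least 1. Ier5 held 2 in 2143 bases, Ier5l 3 in 1254 and Ier3ip1 4 in 1140, beside a median of 1.30 per kb over all genes.

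Ier5 differed between libraries of the anti-CD22 group. The gene lies in a single exon at chr1:155096361-155099636 on the minus strand. In anti-CD22 replicates 1, 2 and 3 it had 4490, 4478 and 4338 normalized counts, below every IgG library. In anti-CD22 replicates 4 to 7 it had 6340, 6033, 6194 and 5422, against an IgG range of 5182 to 7267 with a median of 5920. These 4 libraries lay inside the IgG range, and the 3 low ones were those with the steepest length trend, of 0.311, 0.287 and 0.328. Over all libraries Ier5 averaged 5328 ± 884 normalized counts in anti-CD22 libraries and 6018 ± 762 in IgG libraries (SD, n = 7 each). The log2 fold change was -0.18 (SE 0.099, 95% interval -0.39 to 0.02, limma adjusted p = 0.445), and without the 3 libraries 0.0021. Those libraries also had the lowest GC trends of the 14 libraries. Summed border-associated macrophage markers were also highest of the group in them, at 1335, 2097 and 1544 normalized counts. These sums were 232 to 804 in anti-CD22 replicates 4 to 7 and 76.1 to 1336 in IgG libraries. Whether the length trend, the GC trend or these macrophages set the Ier5 values in anti-CD22 replicates 1, 2 and 3 was not tested. Reads per library ran from 4288 to 8446, so that counting gave a relative SD of 1.27% at the median. Its SD within groups was 0.21 on the log2 scale, and 91.9% of 1306 genes of like level had a smaller one.

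**Figure D2:**
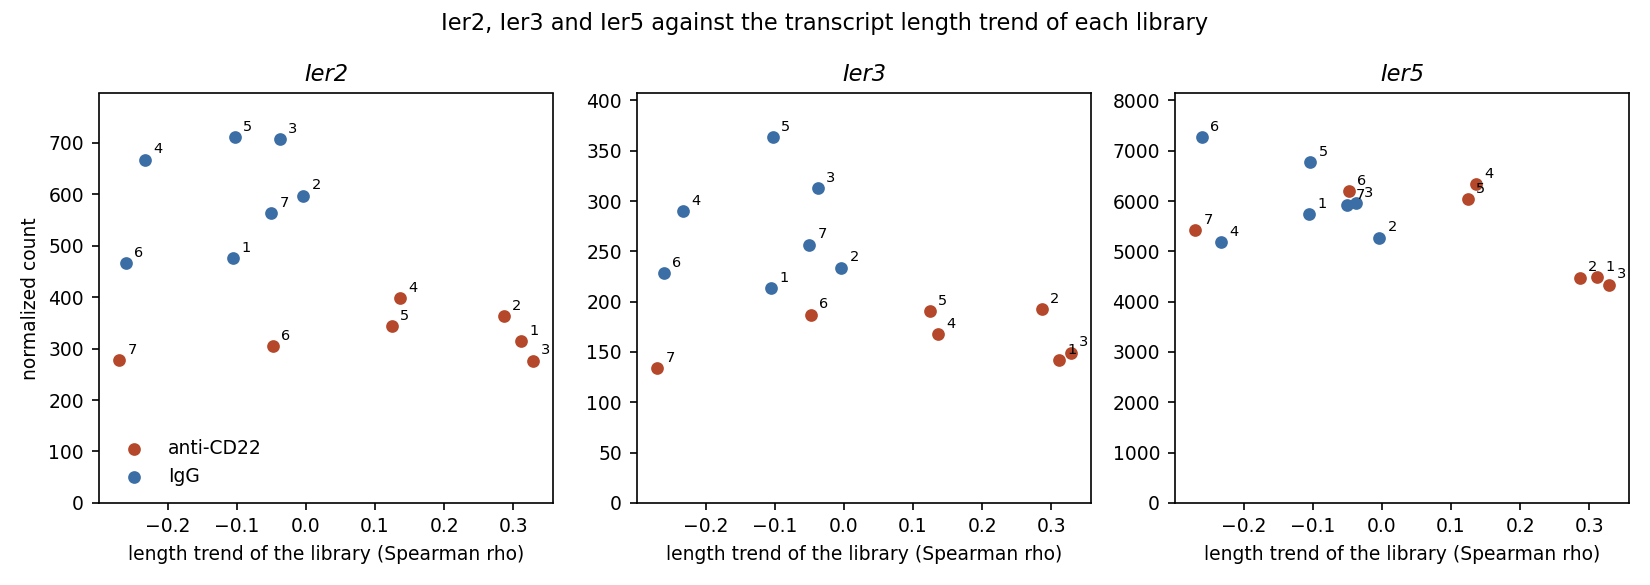
Normalized counts of Ier2, Ier3 and Ier5 (vertical axes from 0) against the length trend of each library (horizontal axis, Spearman rho across genes of the library's deviation with transcript length); points are the 14 libraries numbered by replicate, anti-CD22 in red and IgG in blue. In Ier5 the 3 anti-CD22 libraries with the steepest trend lie at 4338 to 4490, below all others. In Ier2 and Ier3 all anti-CD22 libraries lie below all IgG libraries.

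Ier5l was close to the limit of detection. It lies in a single exon at chr2:30471537-30474219 on the minus strand. It had a lowest, median and highest value of 2.65, 13.4 and 38.1 normalized counts in anti-CD22 libraries and of 0, 7.37 and 38.7 in IgG libraries, and the groups overlapped over nearly the whole range. Between 0 and 52 reads lay behind each value, and the counting SD alone was 27.7% at the median. The means were 14.3 ± 11.4 in anti-CD22 libraries and 16.8 ± 15.8 in IgG libraries (SD, n = 7 each). The mean ratio and the log2 fold change differed in sign, at 0.853 and 0.24 (SE 0.79, 95% interval -1.41 to 1.88, limma adjusted p = 0.923). The fold change turned to -0.33 without IgG replicate 4, the library at 0, and to -0.04 without anti-CD22 replicate 6. A difference of Ier5l between the groups was not detectable at this depth.

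Ier3ip1 varied little and had overlapping groups. It lies on the plus strand at chr18:76930017-76941612 and has 4 annotated transcripts. Its lowest, median and highest values were 1003, 1171 and 1334 normalized counts in anti-CD22 libraries and 928, 1064 and 1352 in IgG libraries. Replicate 7 was the highest library in each group. The means were 1159 ± 113 in anti-CD22 libraries and 1098 ± 148 in IgG libraries (SD, n = 7 each), with a log2 fold change of 0.08 (SE 0.094, 95% interval -0.11 to 0.28, limma adjusted p = 0.734). Its SD on the log2 scale was 0.14 in anti-CD22 libraries, the lowest of the 5 genes, and 0.19 in IgG libraries, where that of Ier5 was 0.18. Hdhd2, which encodes a haloacid dehalogenase-like phosphatase domain protein, has a transcript that shares Ier3ip1 exons. Reads may therefore be split between the genes or left uncounted, and both counts are uncertain. Hdhd2 averaged 1284 ± 153 in anti-CD22 libraries and 1297 ± 184 in IgG libraries, with a log2 fold change of -0.01 (SE 0.10, limma adjusted p = 0.976).

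Per kb of annotated transcript, Ier5 was the highest of the family, followed by Ier3ip1, Ier2, Ier3 and Ier5l, and this order held in all 14 libraries. Ier5 averaged 1626 ± 270 normalized counts per kb in anti-CD22 libraries and 1837 ± 233 in IgG libraries, above 92.0% of tested genes over all libraries. Ier3ip1 averaged 771 ± 75.5 in anti-CD22 libraries and 730 ± 98.5 in IgG libraries. Ier2 averaged 214 ± 29.9 per kb in anti-CD22 libraries and 393 ± 67.5 in IgG libraries, above 61.8% of genes. Ier3 averaged 147 ± 21.7 in anti-CD22 libraries and 240 ± 47.6 in IgG libraries, above 51.9%. Ier5l averaged 5.35 ± 4.25 in anti-CD22 libraries and 6.27 ± 5.88 in IgG libraries, above 4.42%. Neighbours in this order had ranges that did not overlap within a group, except Ier2 and Ier3 in IgG libraries. Within a library the Ier2 level per kb was between 1.21 and 1.90 times that of Ier3.

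**Figure D3:**
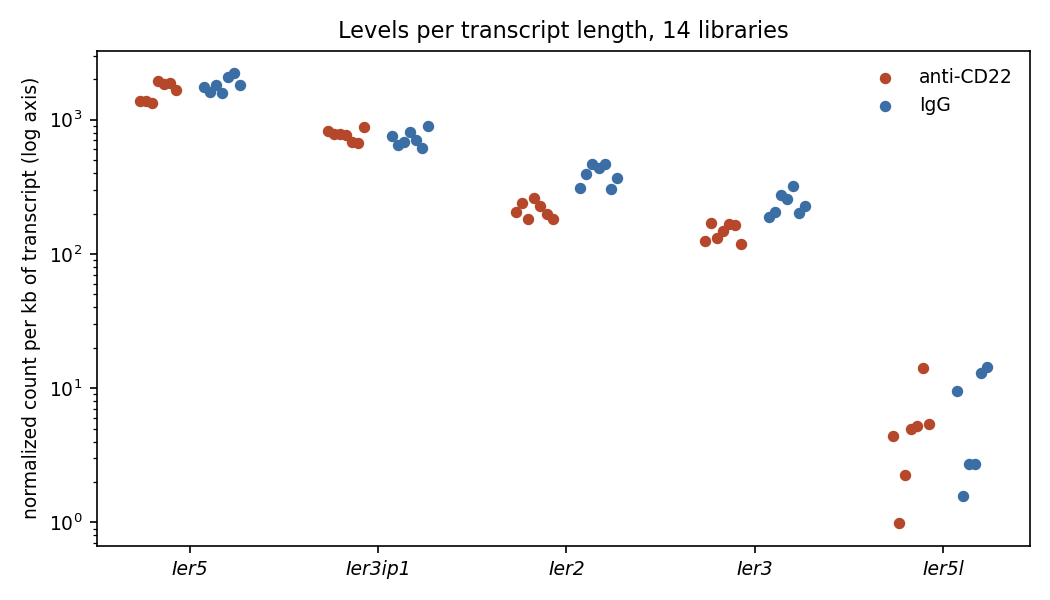
Normalized counts per kb of transcript (log axis) for the 5 genes in order of their mean level; points are libraries, anti-CD22 left of IgG within each gene, and the IgG library with 0 counts of Ier5l cannot be drawn on a log axis. Ier5 and Ier3ip1 stand above Ier2 and Ier3, and Ier5l lies far below them.

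The variation within a group does not use the contrast that picked the genes, and 18 relations were tested there, Ier2 with each of the other 4 genes and each of the 5 with the mean of the prompt response list, in 7 libraries per group. None passed after Benjamini-Hochberg adjustment (exact permutation of Pearson's r, two-sided), and 1 had an unadjusted p of r under 0.05. That relation was Ier2 with Ier3 in IgG libraries, where r was 0.89 (exact p = 0.00952, adjusted p = 0.171) and Spearman's rho 0.93 (exact p = 0.00675). In anti-CD22 libraries r was 0.59 (exact p = 0.158, adjusted p = 0.358) and rho 0.57. Without the 2 libraries farthest from the median of Ier2, r was 0.67 in anti-CD22 libraries and 0.87 in IgG libraries. With each group centred on its mean and all 14 libraries pooled, r was 0.78 (random permutation within groups, p = 0.0029). The adjusted p of this permutation was 0.0261 over the pooled relations alone, a smaller set than the 18 above.

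**Figure D4:**
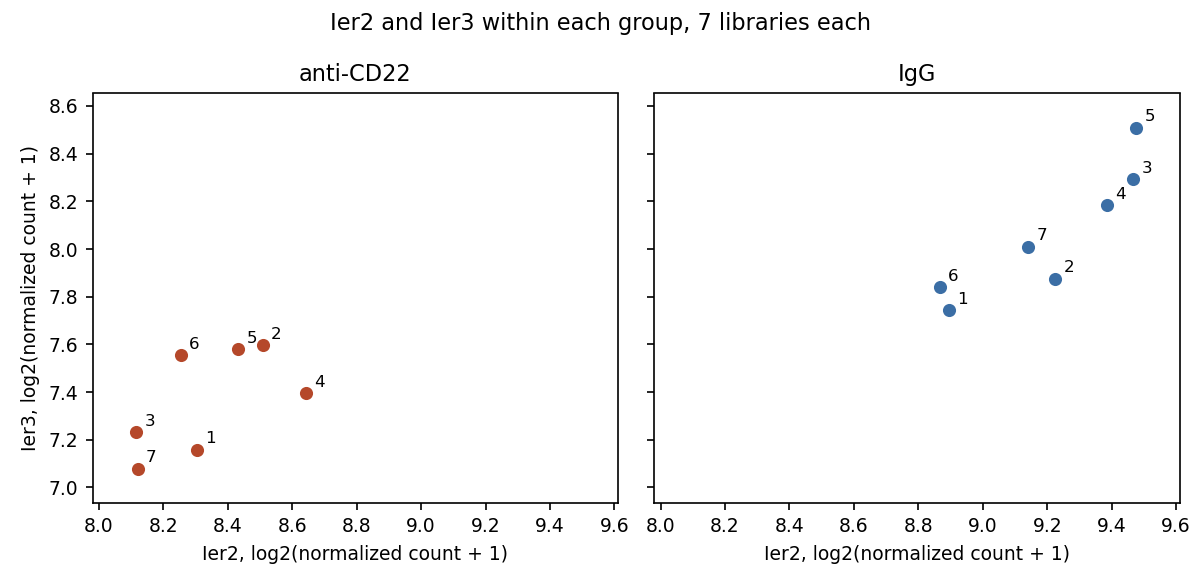
Ier3 against Ier2, both as log2(normalized count + 1), in anti-CD22 libraries (left) and IgG libraries (right), drawn on the same axes; points are libraries numbered by replicate. In IgG libraries the genes order the libraries almost alike (Pearson's r 0.89), and in anti-CD22 libraries the relation is looser (r 0.59).

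The other 17 relations had exact p-values of r between 0.0772 and 0.862 and adjusted p-values between 0.356 and 0.862. Ier2 with Ier5 had r = 0.35 (rho 0.46) in anti-CD22 libraries and -0.26 (rho -0.07) in IgG libraries. Ier2 with Ier3ip1 had -0.25 (rho -0.21) in anti-CD22 libraries and 0.13 (rho 0.14) in IgG libraries, and Ier2 with Ier5l -0.19 (rho -0.21) in anti-CD22 libraries and -0.67 (rho -0.61) in IgG libraries. The second family of relations was with the mean of the prompt response genes. For Ier2 that r was 0.68 (rho 0.54) in anti-CD22 libraries and -0.11 (rho -0.11) in IgG libraries, and for Ier3 0.62 (rho 0.68) in anti-CD22 libraries and 0.08 (rho -0.04) in IgG libraries. For Ier5 it was 0.58 (rho 0.57) in anti-CD22 libraries and 0.70 (rho 0.86, exact p of rho 0.0238, unadjusted) in IgG libraries. Ier5l had 0.25 (rho 0.32) in anti-CD22 libraries and 0.36 (rho 0.36) in IgG libraries, and Ier3ip1 -0.33 (rho -0.54) in anti-CD22 libraries and -0.68 (rho -0.75) in IgG libraries. The remaining exact p-values of rho lay between 0.0663 and 0.963. The difference of r between the groups was not tested.

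Among 9427 genes with a mean of at least 100 normalized counts, those with the profile most like a member over 14 centred libraries were listed, as a description over libraries that share depth and length trends. Among the 3 nearest to Ier2 were Tmco3 (r = 0.83) and Gclm, the modifier subunit of the enzyme that starts glutathione synthesis (0.80). Their log2 fold changes were -0.12 and -0.08. Ier3 was more like Ier2 than 99.9% of the genes. Nearest to Ier3 were the stress-induced kinase gene Plk3 (0.91), Rexo4 (0.89) and Rhbdf1 (0.86), and nearest to Ier5 were Tpgs1 (0.94), Comtd1 (0.94) and BC029722 (0.92).

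Other prompt response genes, a list that includes Fos, Egr and Dusp family members, were mostly lower in anti-CD22 libraries. None passed in the limma fit of all 14 libraries without weights or block, or in edgeR. Of 60 such genes with the Ier genes left out, 46 were tested, 34 were lower and 12 higher. Their median log2 fold change was -0.25, and the range was -1.85 to 0.74, with a Fos family member at each end. Over all tested genes 5795 were lower and 5851 higher, with a median of 0.00. In the list 21 genes, and over all genes 1485, had an unadjusted p under 0.05 in limma. DESeq2 called 6 of the list's genes lower, beside 0.231% of the 7807 genes with an adjusted p, and gave none to 3839 genes. In limma 3 of the list's genes passed, all lower, with array quality weights (0.0343% of all genes were called lower), and 5 without anti-CD22 replicate 7 (0.0601%). In further fits 1 lower gene of the list passed, with the replicate block (0.0172%), with the block and the trends removed (0.00864%), and without anti-CD22 replicate 2 (0.0172%) or replicate 5 (0.0172%). The 3 with the smallest p were Jun, Plk3 and Trib1. Jun averaged 2771 ± 580 normalized counts in anti-CD22 libraries and 4227 ± 470 in IgG libraries. Plk3 averaged 1430 ± 184 in anti-CD22 libraries and 2084 ± 343 in IgG libraries (log2 fold change -0.54, SE 0.10, limma adjusted p = 0.108). Trib1, a pseudokinase gene whose product directs protein degradation, was the 1 gene of the list without overlap, at 2155 ± 285 in anti-CD22 libraries and 2952 ± 358 in IgG libraries (log2 fold change -0.46, SE 0.092, limma adjusted p = 0.121). Without anti-CD22 replicates 1, 2 and 3 the list's median was -0.14, and with the trends of length and GC content removed -0.17.

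Genes that act upstream of the prompt response (serum response factor, CREB family factors, their coactivators and kinases) leaned slightly the other way. Of 20 tested, 15 were higher and 5 lower, with a median of 0.12. None passed in limma, where 3 had an unadjusted p under 0.05, nor in edgeR or DESeq2. The coactivator genes Ep300 and Crebbp had log2 fold changes of 0.38 (SE 0.11) and 0.29 (SE 0.13), and the kinase gene Rps6ka4 -0.27 (SE 0.094), with adjusted p-values in limma of 0.219, 0.374 and 0.289. Ep300 averaged 1143 ± 183 normalized counts in anti-CD22 libraries and 877 ± 126 in IgG libraries. The median of this list was 0.01 with the length and GC trends removed and 0.02 without anti-CD22 replicates 1, 2 and 3.

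Genes of the pathways in which single members act were centred near 0, and none passed in limma, edgeR or DESeq2. Of the PP2A and HSF1 genes, the partners of human IER5, 9 of 16 tested were higher and 7 lower (median 0.01), with 2 at an unadjusted p under 0.05 in limma. Ppp2r2a, a PP2A regulatory subunit gene, averaged 2313 ± 198 in anti-CD22 libraries and 2002 ± 181 in IgG libraries (log2 fold change 0.21, SE 0.074, limma adjusted p = 0.289). Of the HSF1 targets and chaperones in that list, Dnajb1 had a log2 fold change of 0.23 (SE 0.10, limma adjusted p = 0.374) and Hsp90aa1 one of -0.11 (SE 0.076, limma adjusted p = 0.552). Of 17 NF-kB and survival genes around Ier3, 6 were higher and 11 lower (median -0.04), with 2 at an unadjusted p under 0.05. The PP2A subunit gene Ppp2r5e had a log2 fold change of 0.43 (SE 0.16, limma adjusted p = 0.305) and the anti-apoptotic gene Bcl2 one of -0.58 (SE 0.24, limma adjusted p = 0.341). Bcl2a1b, at -0.14, has near-identical copies, so reads may be split among them or left uncounted. Of 10 tested trafficking genes around Ier3ip1, Yip and Yif family genes among them, 4 were higher and 6 lower (median -0.02). In limma 1 had an unadjusted p under 0.05. Yipf6 was at 0.19, Yif1b at -0.16 and Tmem167b at 0.16 on the log2 scale.

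Markers of other blood cells varied between libraries. The 6 neutrophil markers found in the table summed to 0 to 7595 normalized counts in anti-CD22 libraries and 3.34 to 40498 in IgG libraries, with a median log2 fold change of -0.47. IgG replicates 3, 4 and 5 summed to 6.55, 3.34 and 6.30 neutrophil counts and had the 3 highest Ier2 and Ier3 levels. In the anti-CD22 group, replicates 1, 5 and 6 summed to 6.41, 0 and 7.33 neutrophil counts. Their Ier2 levels were 315, 344 and 304 normalized counts. Anti-CD22 replicates 2 and 4, with the most neutrophil counts of that group (7105 and 7595), had its highest Ier2 levels, 363 and 399. The 5 monocyte markers summed to 88.2 to 2313 in anti-CD22 libraries and 137 to 9181 in IgG libraries. All 4 that were tested were lower, with a median of -0.30. IgG replicates 3, 4 and 5 summed to 158, 137 and 179 monocyte counts. The 6 border-associated macrophage markers summed to 232 to 2097 in anti-CD22 libraries and 76.1 to 1336 in IgG libraries, with all 5 that were tested higher and a median of 0.75. Of 5 lymphocyte markers, Cd3e and Ms4a1 were at 0 in every library, and the sum was at most 30.8 in anti-CD22 libraries and 21.8 in IgG libraries. Neuronal markers summed to at most 112 in anti-CD22 libraries and 109 in IgG libraries. The 5 astrocyte, 5 oligodendrocyte and 5 endothelial markers had overlapping sums, of 6595 to 8426, 585 to 1207 and 992 to 1575 in anti-CD22 libraries and of 5920 to 8566, 818 to 1317 and 993 to 1329 in IgG libraries, and Cldn5 was at 0. No marker of any of these lists passed in limma. The part of neutrophils, monocytes or border-associated macrophages in the Ier values was not tested.

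**Figure D5:**
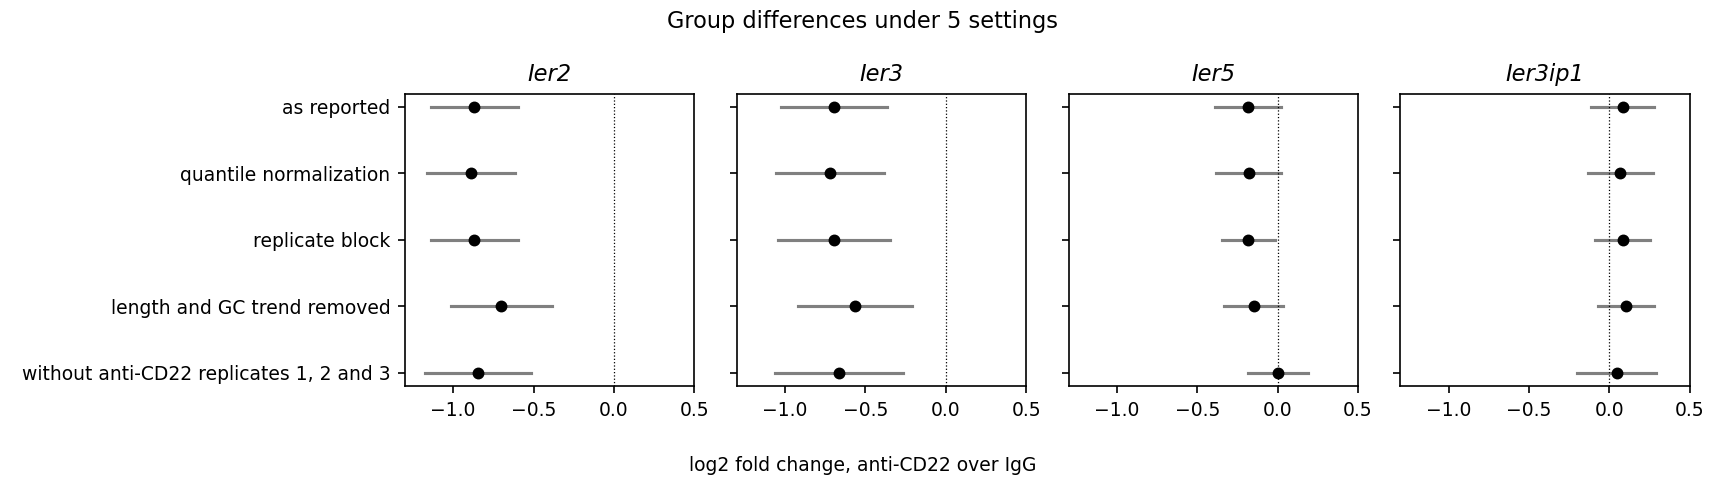
Log2 fold change, anti-CD22 over IgG (horizontal axis), of 4 Ier-named genes under 5 settings; points are estimates and grey lines 95% intervals, and the dotted line marks 0. Ier2 and Ier3 stay between -0.89 and -0.56 in all 5, Ier5 is at 0.0021 without anti-CD22 replicates 1, 2 and 3, and Ier3ip1 stays near 0.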

How the data were processed

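RNA-seq libraries of sorted microglia were made with SmartSeq v4 cDNA and Nextera XT, which does not mark strand. Per the labels' design text and the submitters' processing notes, the authors demultiplexed with bcl2fastq, aligned 100-base paired reads with STAR, counted with SummarizedExperiment and tested with DESeq2, and the notes name the build mm10. The sources used here name no tool version, gene annotation or strand setting. The deposited values are a signal per gene, which the values show to be read counts divided by 1 factor per library, called normalized counts here. Whole reads (within 0.1 reads) were recovered in 100% of values of 13 libraries. In anti-CD22 replicate 3, with a step of 1.01 normalized counts per read, 100% of values were also whole. The reads of that library were not used, so edgeR and DESeq2 were run without it. Of 24421 entries, 27 had names turned into dates (at most 0.149% of a library) and were left out.

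Differences were fitted with limma 3.58.1 (R 4.3.3) on log2(normalized count + 1), with a mean-variance trend, in genes with a mean of at least 10, and p-values were adjusted by the Benjamini-Hochberg method over all 11646 genes tested with a threshold of 0.05. The low-value filter, pseudocount, scaling, weights, replicate block, edgeR 4.0.16, DESeq2 1.42.0, trends of length and GC content and each library left out were alternatives. The fitting step was checked on simulated data. Correlations used exact permutation over the 5040 pairings of 7 libraries. Gene positions and transcript lengths came from GENCODE vM21, which matched 99.4% of tested genes. Among the 13 libraries whose reads were used, no 2 of the same group were alike within sampling noise.

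The genes named are the Ier genes, tested genes within 10 kb of them, the 3 genes of each list with the smallest p, the 3 most like Ier2, Ier3 and Ier5, the gene next to the threshold, and Cd22. The members and lists were chosen with earlier results of these data known. A few genes that this rule or the marker lists name are not reported here.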

Additional observations from a re-analysis of the deposited data

Results flagged for a closer look

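Ier5l in anti-CD22 replicate 6 stood far from the other libraries of its group, at 38.1 normalized counts where the other 6 lay between 2.65 and 14.4. Values as high occurred in the IgG group, where replicate 7 had 38.7. Such a gap was looked for with Dixon's ratio in the 7 libraries of each group for 6 quantities, 12 groups in all. The ratio of Ier5l, on normalized counts, was 0.668 beside a critical value of 0.568. For normally distributed values chance gives such a gap in about 1 in 20 groups, and counts as low as those of Ier5l need not be so distributed.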

How the results depend on the processing

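The calls depended on the fit. Ier2 was the 1 gene called, and it kept its direction in every alternative run. Its call was lost with no mean-variance trend (log2 fold change -0.87, limma adjusted p = 0.0638, 0 genes called). With the length and GC trends removed it was lost too (-0.70, 0 genes). It was also lost in edgeR (-0.84, 0 genes), which was run without anti-CD22 replicate 3. In limma without that library the call was lost as well (-0.83, adjusted p = 0.0832). The edgeR model and the missing library can therefore not be told apart. Without anti-CD22 replicates 1, 2 and 3 Ier2 was at -0.85 and not called (0 genes, 582 at an unadjusted p under 0.05 in limma). That setting was chosen after seeing the data, and fewer libraries entered the fit. Array weights gave 8 genes and DESeq2 32. Leaving out 1 library at a time gave -0.93 to -0.82 for Ier2 (adjusted p 0.0139 to 0.101, lost without IgG replicates 2, 3, 4, 5 or 7 or anti-CD22 replicates 1, 3 or 6) and 0 to 43 genes, with 43 without anti-CD22 replicate 7. Ier3 stayed below 0 and was called in no alternative that gave it an adjusted p (DESeq2 gave none, at an unadjusted p of 0.000117), at -0.75 to -0.62 over the left-out libraries.

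Replicate numbers are shared between the groups, but same-numbered libraries deviated together only weakly (r between -0.145 and 0.160) and 0 of 7 correlated best with their own number. With the replicate block, 2 genes were called and the adjusted p of Ier2 in limma was 0.0494; with the replicate block and the trends removed Ier2 was at -0.70 (adjusted p = 0.171) and 1 gene was called.

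Ier5 reversed to 0.0021 without the 3 libraries. Ier5l reversed in edgeR (-0.076) and DESeq2 (-0.086), and lay between -0.33 and 0.56 over the left-out libraries. The upstream list's median of 0.12 moved to 0.011 with the trends removed, with or without the replicate block, and to 0.022 without the 3 libraries. With the trends removed, r reversed in anti-CD22 libraries for Ier2 with Ier5 (-0.37) and with Ier3ip1 (0.17) and for Ier5l with the prompt response mean (-0.13). Without the 2 farthest libraries it reversed for Ier2 with Ier5l in anti-CD22 libraries (0.28), and in IgG libraries for Ier2 with Ier5 (0.40), Ier3ip1 (-0.43) and the prompt response mean (0.62) and for Ier3 with that mean (-0.49). Over 14 centred libraries Ier2 had r = 0.054 with Ier5, -0.013 with Ier3ip1 and 0.31 with that mean, each reversed against IgG libraries. The causes were not tested. Depth limits Ier5l, with at most 52 reads per library.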
